A study of Homo sapiens with 6 samples.

Results

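The heme degradation and iron handling genes considered here are 10 genes chosen by name, with earlier results of these data known. They are the heme oxygenases HMOX1 and HMOX2, the biliverdin reductases BLVRA and BLVRB and the ferritin chains FTL and FTH1. The others are the transferrin receptor TFRC, the iron transporters SLC40A1 and SLC11A2, and ferrochelatase, FECH. All 10 symbols were found once among the 58302 genes of the expression table. The libraries come from ME180, a single established human cervical cancer cell line with epithelial morphology, and hold polyA RNA taken 48 h after transfection. Small interfering RNA (siRNA) was given either as a control (siControl, 3 libraries) or against SGK1, a serine/threonine kinase that regulates ion transport (siSGK1, 3 libraries). The 3 libraries of a group are described as biological repeats and numbered 2, 3 and 4. All 6 cultures were transfected, no untransfected culture was analysed here, and the labels do not give the siRNA sequences. The comparison asks how the transcripts of this pathway differ between cells with and without knockdown of SGK1.

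Heme oxygenase opens the heme ring and releases iron, carbon monoxide and biliverdin, which biliverdin reductase converts to bilirubin. Iron released in this way is stored in ferritin, a shell of heavy (FTH1) and light (FTL) chains, or leaves the cell through ferroportin (SLC40A1). Transferrin-bound iron enters through TFRC and crosses the endosomal membrane through SLC11A2, and FECH inserts iron into protoporphyrin in the last step of heme synthesis. HMOX1 is the stress-inducible oxygenase, a known target of the activator NRF2 and the repressor BACH1, whereas HMOX2 is regarded as constitutive.

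Several of these mRNAs carry iron responsive elements, hairpins with a CAGTGN loop that are bound by the iron regulatory proteins when iron is scarce. Bound elements near the start of an mRNA are known to block its translation, and bound elements in the tail of TFRC mRNA are known to stabilise it. The elements are shown because, among the genes that carry one, those of storage and export hold it at the other end of the mRNA from those of uptake. A search of GENCODE 29 untranslated regions (GRCh38) for an unpaired C, 5 bases, the loop CAGTGN and 5 bases that pair with the first 5 (at least 4 of 5 pairs, G-U allowed) found it in 5 of the 10 genes. FTL, FTH1 and SLC40A1 held it in the 5′ UTR, and TFRC and SLC11A2 held it in the 3′ UTR. The loop is in capitals below, with the bases around it in lower case.
FTL, 5′ UTR, chr19:48965336-48965362, plus strand: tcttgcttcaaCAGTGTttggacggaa
FTH1, 5′ UTR, chr11:61967575-61967601, minus strand: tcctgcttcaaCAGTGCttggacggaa
SLC40A1, 5′ UTR, chr2:189580662-189580688, minus strand: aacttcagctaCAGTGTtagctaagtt
TFRC, 3′ UTR, chr3:196050980-196051006, minus strand: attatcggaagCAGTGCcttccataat
TFRC, 3′ UTR, chr3:196050576-196050602, minus strand: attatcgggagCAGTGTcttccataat
TFRC, 3′ UTR, chr3:196050511-196050537, minus strand: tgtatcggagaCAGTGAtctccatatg
TFRC, 3′ UTR, chr3:196050464-196050490, minus strand: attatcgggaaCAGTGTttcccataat
SLC11A2, 3′ UTR, chr12:50988270-50988296, minus strand: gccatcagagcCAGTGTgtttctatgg
The 4 matches in TFRC and those in FTL, FTH1 and SLC40A1 had all 5 pairs, and the match in SLC11A2 had 4. The same search found an element in the 5′ UTR of 1.29% of 18752 genes and in the 3′ UTR of 4.66% of 19058 genes, so a match by letters is common beyond this pathway. HMOX1, HMOX2, BLVRA, BLVRB and FECH had no match in these windows.

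The deposited unit is FPKM (fragments per kilobase of gene length, further divided by a library size), so levels may be compared roughly between genes. For HMOX2 and FTH1 the length used, 3793 and 2030 bases, equals the exon bases of all annotated transcripts pooled. Ratios and orders of levels between genes depend on such lengths, whichever transcripts are expressed. The libraries held 27262794 to 35242643 reads assigned to genes. The library size implied by the FPKM values was 0.952 to 0.967 times this total in siControl and 1.03 to 1.09 times in siSGK1, so the deposited scaling lowers siSGK1 values relative to scaling by total reads. With total-read scaling the share of all tested genes called lower was 12.9% and higher 36.1%, and with TPM scaling 9.8% and 47.3%. The targeted gene SGK1 averaged 4.12 ± 0.19 FPKM in controls and 1.70 ± 0.12 FPKM after siSGK1 (SD, n = 3 each), 41.2% of the control level. All 7 epithelial markers were expressed, among them EPCAM, CDH1 and TP63, which were not called different. The markers KRT5, KRT8 and KRT14 were called lower, and the summed level of the 7 markers was 5902 to 6170 FPKM in siControl and 3626 to 4236 FPKM in siSGK1; its part in the results was not tested. Erythroid markers summed to at most 0.275 FPKM in siControl and 0.263 FPKM in siSGK1, macrophage markers to at most 0.276 and 0.364 FPKM, and hepatocyte markers to at most 0.619 and 0.44 FPKM. Fibroblast markers summed to 4.70 to 5.25 FPKM in siControl and 4.86 to 5.72 FPKM in siSGK1, and COL1A1 was the only 1 of the 5 with a mean of at least 1 FPKM. In cultures, fewer expressing cells and less RNA per cell cannot be told apart.

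Of the 10 genes, 9 passed the level filter of a mean of at least 1 FPKM, and SLC40A1 did not. In the limma test on log2(FPKM + 0.5), 6 of the 9 fell after siSGK1 (HMOX1, FTL, FTH1, BLVRB, SLC11A2 and BLVRA), 1 rose (FECH), and HMOX2 and TFRC were not called at an adjusted p below 0.05. Among all 11945 tested genes 40.6% were called, 22.7% lower and 17.9% higher. The median log2 change of the 9 genes was −0.28, against −0.006 over all tested genes. Groups did not overlap in 7 of the 9 genes on the lower side and in the other 2 on the higher side, where 28.8% and 24.6% of all tested genes did not overlap. The sizes ranged from a fall to 30.9% of the control level for HMOX1 to a rise of 1.34-fold for FECH.

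**Figure D1:**
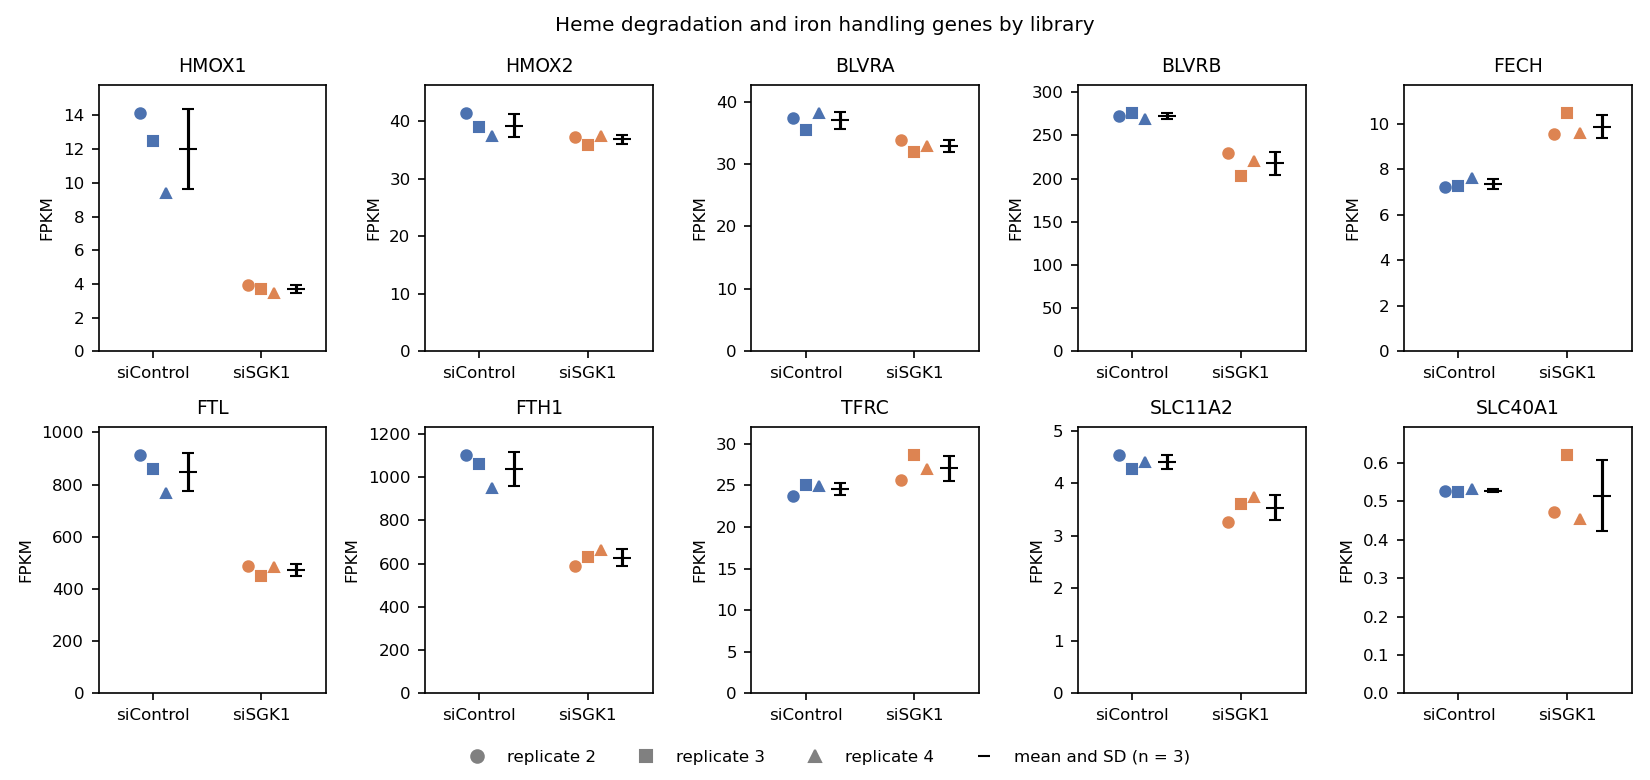
FPKM (vertical axes, each starting at 0) of the 10 genes in each siControl and siSGK1 library; circles, squares and triangles are replicates 2, 3 and 4, and the bar beside them gives the mean and SD (n = 3). HMOX1, FTL and FTH1 are well below every control library in all siSGK1 libraries, FECH is above, and SLC40A1 overlaps.

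HMOX1 (ENSG00000100292, chromosome 22, 35380361 to 35394214, plus strand), the inducible heme oxygenase, fell most. It measured 14.1, 12.5 and 9.41 FPKM in siControl replicates 2, 3 and 4, and 3.92, 3.73 and 3.47 FPKM in the siSGK1 libraries of the same numbers. The control libraries spread widely, with an SD of 2.4 FPKM against 0.22 FPKM in siSGK1, but the lowest control still lay far above the highest siSGK1 library. The mean fell to 3.71 FPKM, 30.9% of the control mean (n = 3 each), with a log2 change of −1.55 (SE 0.13, 95% interval −1.84 to −1.27, limma adjusted p = 5.07e-05). Only 13 of the 11945 tested genes had a more negative log2 change. The reads behind these values numbered 610 to 892 in siControl and 277 to 306 in siSGK1. By exact two-sided permutation of the library labels, p was 0.1, and no smaller p is possible with 3 in each group.

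HMOX2 (ENSG00000103415, chromosome 16, 4474690 to 4510347, plus strand), the constitutive heme oxygenase, was not called. Its values were 41.4, 38.9 and 37.4 FPKM in siControl and 37.2, 35.9 and 37.3 FPKM in siSGK1. The groups lay next to each other: the lowest control (37.36 FPKM) was only just above the highest siSGK1 library (37.32 FPKM). Its log2 change was −0.09 (95% interval −0.20 to 0.02, limma adjusted p = 0.18), so a fall larger than 0.20 log2 units lies outside the interval. The sign turned with scaling by total reads (0.05) and by TPM (0.11, adjusted p = 0.047), settings that shift the median of all genes by 0.12 and 0.19. Of the exon bases of HMOX2, 6.0% overlap NMRAL1 on the other strand, and no label states the strand setting of the counting, so its value is uncertain to that extent.

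HMOX1 therefore made up a smaller part of heme oxygenase transcripts after siSGK1. Of the summed FPKM of both genes, HMOX1 gave 25.5%, 24.3% and 20.1% in the control libraries and 9.52%, 9.42% and 8.515% in the siSGK1 libraries. HMOX2 was the more abundant transcript in all 6 libraries. The ratio of HMOX1 to HMOX2 was 0.305 ± 0.047 without and 0.101 ± 0.007 with SGK1 knockdown, and the groups did not overlap. For the log2 ratio the exact permutation p was 0.1, again the smallest possible (0.13 with Benjamini-Hochberg adjustment over 4 ratios).

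The biliverdin reductases were lower by smaller amounts. BLVRB (ENSG00000090013, chromosome 19, 40447789 to 40465840, minus strand), which also reduces flavins, measured 272, 276 and 269.6 FPKM in siControl and 229, 203 and 220.4 FPKM in siSGK1. Every siSGK1 library was below every control library. The mean fell from 272 ± 3 to 218 ± 13 FPKM (SD, n = 3 each; log2 change −0.33, SE 0.05, limma adjusted p = 0.0016). The fall was smaller, down to 0.12 on the log2 scale, under other scalings, all of them called.

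BLVRA (ENSG00000106605, chromosome 7, 43758680 to 43807342, plus strand), the main biliverdin reductase of adult tissues, measured 37.4, 35.5 and 38.2 FPKM in siControl and 33.9, 31.9 and 32.9 FPKM in siSGK1. The groups were close but did not overlap. The mean fell from 37.0 ± 1.4 to 32.9 ± 1.0 FPKM, with a log2 change of −0.17 (SE 0.05, limma adjusted p = 0.021). This call was lost under quantile normalization (log2 change −0.09, adjusted p = 0.14) and total-read scaling (−0.03, adjusted p = 0.60), and the sign turned with TPM scaling (0.03, adjusted p = 0.51). Leaving out siControl replicate 2, siControl replicate 4 or siSGK1 replicate 4 also ended it (limma adjusted p = 0.061, 0.066 and 0.061). BLVRB was 7.37 ± 0.36 times as abundant as BLVRA in siControl and 6.61 ± 0.22 times in siSGK1 (log2 difference −0.16, exact permutation p = 0.1, adjusted 0.13), a difference that shrank to −0.06 under quantile normalization.

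**Figure D2:**
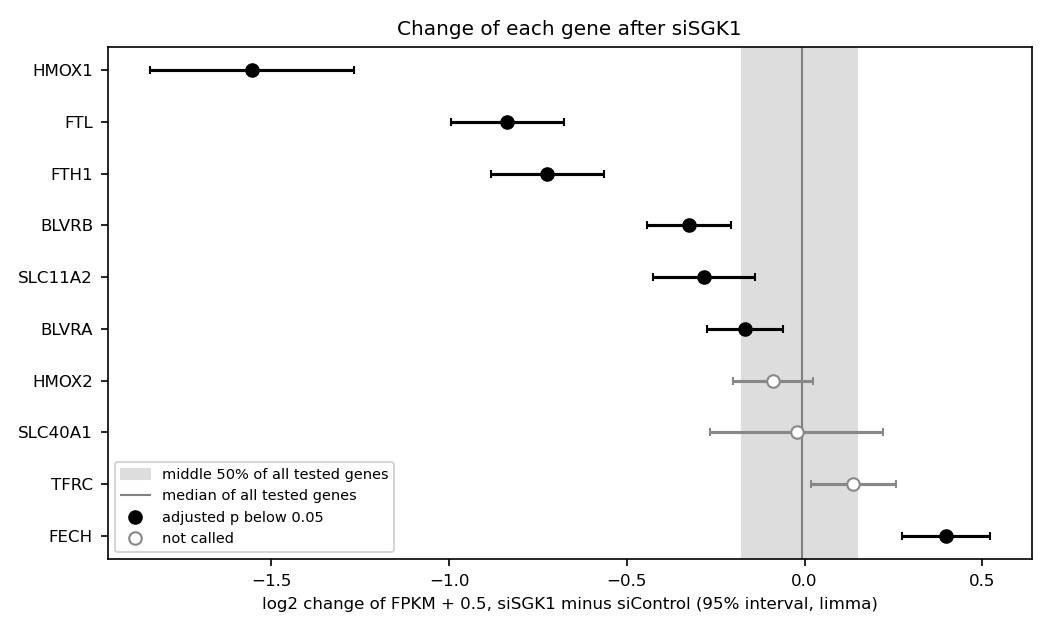
Log2 change of FPKM + 0.5, siSGK1 minus siControl (horizontal axis), of each of the 10 genes with its 95% interval from limma; filled points passed an adjusted p below 0.05, the grey band holds the middle 50% of all tested genes and the grey line their median. HMOX1 lies at −1.55, FTL at −0.84 and FTH1 at −0.72, outside the band, and FECH at 0.40 on the other side.

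Both ferritin chains fell, and they were by far the most abundant of these transcripts. FTL (ENSG00000087086, chromosome 19, 48965301 to 48966878, plus strand), the light chain, measured 913, 861 and 769 FPKM in siControl and 489.7, 448 and 483 FPKM in siSGK1. Its highest siSGK1 library was well under its lowest control library. Its log2 change was −0.84 (SE 0.07, limma adjusted p = 5.73e-05), which left 55.9% of the control level. FTH1 (ENSG00000167996, chromosome 11, 61959718 to 61967660, minus strand), the heavy chain that oxidises ferrous iron, measured 1101, 1058 and 948 FPKM in siControl and 587, 629 and 664 FPKM in siSGK1. The groups were again far apart, at 1036 ± 79 and 627 ± 39 FPKM (SD, n = 3 each; log2 change −0.72, SE 0.07, limma adjusted p = 1.23e-04). Under quantile normalization both falls stayed called but were smaller, with log2 changes of −0.52 for FTL and −0.36 for FTH1. FTH1 ranked 45 and FTL ranked 54 among all genes by mean FPKM in siControl, and 57 and 85 in siSGK1. Summed over both chains, ferritin transcripts amounted to 1883 ± 152 FPKM in siControl and 1100.1 ± 40.6 FPKM in siSGK1.

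No difference between the chains in the size of their fall was detected. The ratio of FTL to FTH1 was 0.829, 0.814 and 0.811 in the control libraries and 0.835, 0.713 and 0.727 in those with siSGK1. The siSGK1 library of replicate 2 lay above every control and the other 2 lay below, so the groups overlapped (exact two-sided permutation p = 0.4, adjusted 0.40). Within siControl, replicate 4 was the lowest library for HMOX1, FTL and FTH1 alike. Without it the log2 changes of HMOX1, FTL and FTH1 stayed negative and called, and the change of HMOX1 was then −1.71.

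Processed pseudogenes of ferritin were counted separately in the table. The table lists 25 FTH1 pseudogenes, of which 17 had reads and 5 passed the level filter. It lists 14 FTL pseudogenes, of which 5 had reads, and these were below the filter. All 5 tested FTH1 pseudogenes were called lower, where 22.7% of all tested genes were. Among these 5, FTH1P11 averaged 1.56 FPKM in siControl and 0.83 FPKM in siSGK1, so it passed the filter through siControl. FTH1P2 fell to 16.1 ± 2.6 FPKM (log2 change −0.62), FTH1P8 from 16.8 ± 2.3 to 9.89 ± 1.05 FPKM and FTH1P7 from 13.3 ± 1.9 to 8.56 ± 1.55 FPKM (limma adjusted p = 0.0068, 7.86e-04 and 0.0061), and FTH1P2 and FTH1P7 lost the call without the level filter. Because these copies are nearly identical to FTH1, reads may be shared among them, and their values are uncertain. Reads on FTH1 pseudogenes equalled 1.31% to 1.90% of those on FTH1, and reads on FTL pseudogenes 0.046% to 0.169% of those on FTL. FTH1 exons also overlap BEST1 on the other strand over 62.4% of their bases, but BEST1 averaged 0.18 FPKM.

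Of the iron uptake genes, SLC11A2 fell and TFRC was not called. TFRC (ENSG00000072274, chromosome 3, 196027183 to 196082189, minus strand), the transferrin receptor, measured 23.7, 25.1 and 24.9 FPKM in siControl and 25.6, 28.6 and 27.0 FPKM in siSGK1. All siSGK1 libraries lay above all controls by a small margin, and the difference was not called (log2 change 0.14, 95% interval 0.02 to 0.26, limma adjusted p = 0.068). It was called with voom on recovered reads (limma adjusted p = 0.039). Scaling by total reads or to TPM raised the log2 change to 0.27 and 0.34, and both were called (limma adjusted p = 0.00661 and 0.0027). Leaving out siSGK1 replicate 2 also brought a call (log2 change 0.18, limma adjusted p = 0.041). Set against FTH1, TFRC was 0.0238 ± 0.0023 times as abundant in siControl and 0.0433 ± 0.0025 times in siSGK1. That ratio was higher in all 3 siSGK1 libraries than in any control (log2 difference 0.86, exact two-sided permutation p = 0.1, adjusted 0.13), and the difference was 0.54 under quantile normalization.

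SLC11A2 (ENSG00000110911, chromosome 12, 50979401 to 51028566, minus strand), the divalent metal transporter DMT1, measured 4.54, 4.27 and 4.40 FPKM in siControl and 3.27, 3.60 and 3.73 FPKM in siSGK1. Each siSGK1 library was below each control. The mean fell from 4.40 ± 0.13 to 3.53 ± 0.24 FPKM (SD, n = 3 each; log2 change −0.28, SE 0.06, limma adjusted p = 0.0074). Scaling by total reads or to TPM ended this call (log2 changes −0.16 and −0.11, adjusted p = 0.090 and 0.25).

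SLC40A1 (ENSG00000138449, chromosome 2, 189560579 to 189583758, minus strand), the iron exporter ferroportin, was scarce and showed no detectable difference. It measured 0.528, 0.525 and 0.531 FPKM in siControl and 0.471, 0.621 and 0.454 FPKM in siSGK1, on 59 to 89 reads per library. The siSGK1 libraries lay on both sides of the controls. Tested without a level filter, where 11.8% of 31878 genes were called, its log2 change was −0.02 (95% interval −0.27 to 0.22, limma adjusted p = 0.92). The sign turned in 4 of 15 alternative settings, all of them without a call.

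**Figure D3:**
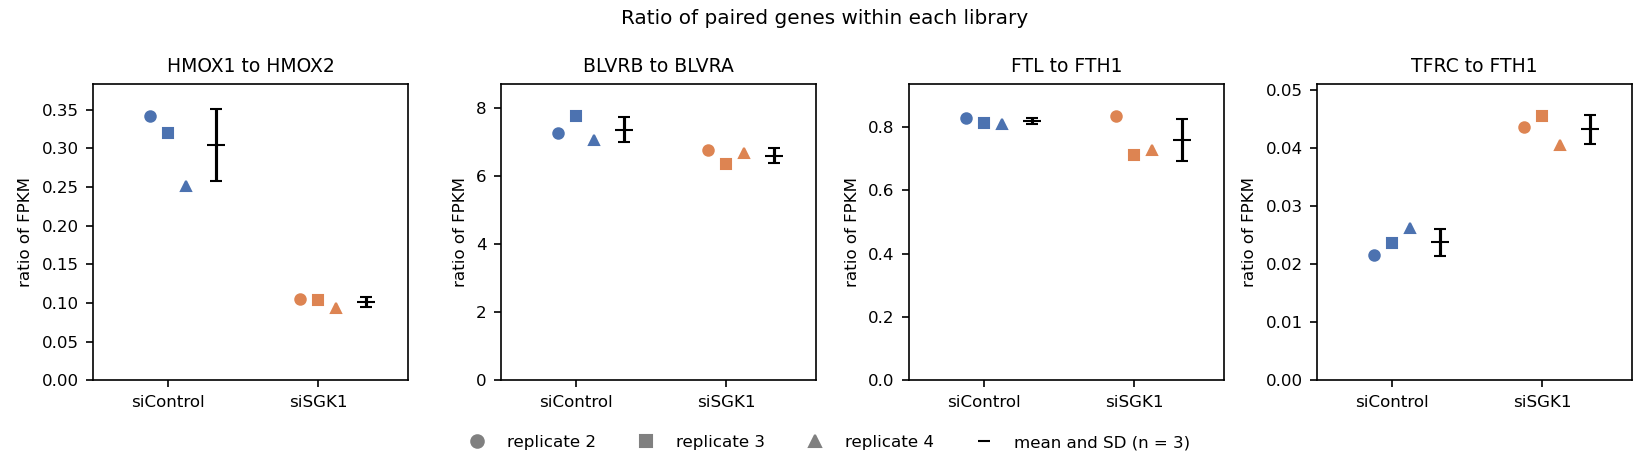
Ratios of FPKM within each library (vertical axes, each starting at 0) for HMOX1 to HMOX2, BLVRB to BLVRA, FTL to FTH1 and TFRC to FTH1, with replicates 2, 3 and 4 as circles, squares and triangles and the mean and SD (n = 3) beside them. The groups are apart for every ratio but FTL to FTH1, in which the siSGK1 library of replicate 2 lies at 0.835, above the controls.

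FECH, the only one of the 10 genes that rose, acts at the end of heme synthesis. FECH (ENSG00000066926, chromosome 18, 57548283 to 57586772, minus strand) measured 7.23, 7.26 and 7.63 FPKM in siControl and 9.57, 10.5 and 9.60 FPKM in siSGK1. Every siSGK1 library exceeded every control by more than the range within either group. The mean rose from 7.37 ± 0.22 to 9.88 ± 0.51 FPKM (SD, n = 3 each; log2 change 0.40, SE 0.05, limma adjusted p = 6.56e-04). A larger rise on the log2 scale was seen in 767 tested genes. With TPM scaling the log2 change of FECH was 0.61.

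The enzymes upstream of FECH did not share its direction. In a list of 9 heme synthesis genes, 8 were tested, of which 4 fell and FECH alone rose (50% lower against 22.7% of all tested genes, median log2 change of the list −0.19). ALAS1, the rate-limiting first enzyme in non-erythroid cells, fell from 32.9 ± 1.6 to 26.7 ± 1.4 FPKM (log2 change −0.29, limma adjusted p = 0.0033). CPOX, coproporphyrinogen oxidase, fell from 18.6 ± 1.0 to 14.2 ± 1.0 FPKM (log2 change −0.38, limma adjusted p = 0.0021). ALAD and UROD fell by 0.25 and 0.23 on the log2 scale. The erythroid synthase ALAS2 was untested, with at most 6 reads in a library. TPM scaling, which moved the median of all genes by 0.19, ended the calls of ALAS1, CPOX, ALAD and UROD, and total-read scaling ended those of ALAD and UROD. The call of UROD was also lost without siControl replicate 3 (limma adjusted p = 0.068) and without the level filter (0.061).

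RefSeq promoter windows (GRCh38.p14, 250 bases before to 50 after the start) were matched for 8 of the 10 genes, all but HMOX1 and FTH1. They were searched on both strands for TGACNNNGC, the core of the element to which NRF2 and BACH1 bind with small MAF proteins. One window held it, that of FECH, and it is shown as the only match. The match, in capitals, reads as the reverse complement of the core.
FECH promoter, chr18:57586722-57586750, minus strand: ccgggagggcGCGAGGTCAgggggctggg
The 8 genes have 12 windows, of which 1 held a match, against 13.3% of all 35116 promoter windows. Sequence outside these windows was not searched, so genes without a match may hold the element elsewhere.

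Levels within a group kept the order FTH1, FTL, BLVRB, HMOX2, BLVRA, TFRC in both conditions. HMOX2 and BLVRA overlapped in siControl and did not overlap in siSGK1. Below them the order changed: in siControl HMOX1 lay above FECH and SLC11A2 without overlap, and in siSGK1 FECH lay above HMOX1, which overlapped SLC11A2. SLC40A1 was the lowest in every library.

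Further heme and iron genes were taken from 11 lists, which hold 115 genes of the table besides the 10. The lists, too, were chosen with earlier results of these data known. Of these, 86 were tested, and 32 fell, 7 rose and 47 were not called. The share called lower was 37.2%, against 22.7% of all tested genes, and the share called higher was 8.14%, against 17.9%. The median log2 change was −0.12. With total-read scaling 24.4% were called lower and 20.9% higher (12.9% and 36.1% of all tested genes), and the median was 0.02 against 0.12 over all tested genes. With TPM scaling 16.3% were called lower and 33.7% higher (9.8% and 47.3% of all tested genes), with medians of 0.08 and 0.19. The direction of the lists' median thus depended on the scaling, and it lay below that of all tested genes under each of the 3.

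Regulators and antioxidant targets of NRF2 and BACH1 were mostly lower: of 15 tested genes 10 fell and 5 were not called, with a median log2 change of −0.34. That is 66.7% lower, against 22.7% of all tested genes. With total-read scaling 8 were called lower and 1 higher (53.3% and 6.67%, against 12.9% and 36.1% of all tested genes). The median was then −0.20, against 0.12 over all tested genes. With TPM scaling 6 were called lower and 1 higher (40% and 6.67%, against 9.8% and 47.3% of all tested genes). The median was then −0.14, against 0.19 over all tested genes. NFE2L2, which encodes NRF2, measured 11.9, 12.5 and 12.7 FPKM in siControl and 6.39, 6.21 and 6.30 FPKM in siSGK1 (log2 change −0.92, SE 0.05, limma adjusted p = 8.92e-06). Its siSGK1 libraries all lay near 51% of the controls, with no overlap. BACH1, the heme-sensing repressor of HMOX1, measured 1.79 ± 0.10 and 1.77 ± 0.15 FPKM and was not called (log2 change −0.01, adjusted p = 0.90), nor was KEAP1, which marks NRF2 for degradation (adjusted p = 0.070). Among the targets, the quinone reductase NQO1 fell from 169.9 ± 9.7 to 115 ± 2 FPKM and the conjugate exporter ABCC1 from 13.3 ± 0.8 to 9.02 ± 0.35 FPKM. The targets GCLM and TXNRD1 were not called (log2 changes −0.20 and −0.12, limma adjusted p = 0.083 and 0.16). The regulator MAFK was not called either (log2 change 0.07, limma adjusted p = 0.38). BACH1, KEAP1, GCLM, TXNRD1 and MAFK were named after their values were seen.

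Genes of ferritin, iron chaperones and ferritinophagy fell in 5 of 6 tested cases, counting FTL and FTH1, and 1 rose, where 22.7% of all tested genes fell and 17.9% rose. With total-read scaling 3 were called lower and 1 higher (50% and 16.7%, against 12.9% and 36.1% of all tested genes). With TPM scaling 2 were called lower, FTL and FTH1, and 1 higher (33.3% and 16.7%, against 9.8% and 47.3%). PCBP1, a chaperone that delivers iron to ferritin, fell from 138.5 ± 7.8 to 114 ± 4 FPKM (log2 change −0.28, limma adjusted p = 0.0038). PCBP2, a second such chaperone, rose from 16.5 ± 0.3 to 18.4 ± 0.5 FPKM (log2 change 0.15, limma adjusted p = 0.023). PCBP4 and NCOA4, the receptor that carries ferritin to lysosomes, fell by 0.27 and 0.14 on the log2 scale (adjusted p = 0.023 and 0.048). PCBP1 lost its call with TPM scaling (log2 change −0.07), and PCBP4 lost its call with total-read scaling (−0.13), with TPM scaling (−0.07), without the level filter and without siControl replicate 3 or 4. The call of NCOA4 was lost in 9 of its alternatives and its sign turned with TPM scaling (0.06), and PCBP2 lost its call with the replicate block and in 5 of the 6 fits that leave out a library.

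Cellular iron uptake was represented by 9 tested genes, of which 4 fell, SLC11A2 among them, and 5 were not called (44.4% lower, against 22.7% of all tested genes). With total-read scaling 3 were called lower and 2 higher (33.3% and 22.2%, against 12.9% and 36.1% of all tested genes). With TPM scaling 3 were called lower and 3 higher (33.3% each, against 9.8% and 47.3% of all tested genes). The endosomal ferrireductase STEAP3 fell from 8.18 ± 0.15 to 5.07 ± 0.04 FPKM (log2 change −0.64, limma adjusted p = 3.35e-05). LCN2, the siderophore-binding lipocalin, fell from 37.9 ± 1.4 to 24.8 ± 1.5 FPKM, and CYBRD1, a surface ferrireductase, from 5.32 ± 0.23 to 3.57 ± 0.08 FPKM. MCOLN1, a lysosomal channel, measured 3.34 ± 0.45 and 2.60 ± 0.40 FPKM with overlapping groups and was not called (limma adjusted p = 0.057). It was called lower with voom and without siControl replicate 4 or siSGK1 replicate 4 (limma adjusted p = 0.013, 0.023 and 0.021). Of the export and hepcidin genes only HFE was tested, and it was not called (1.88 ± 0.12 and 1.64 ± 0.10 FPKM, adjusted p = 0.14).

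Of 7 tested iron sensing genes 2 were higher, 1 was lower and 4 were not called. That is 28.6% higher and 14.3% lower, against 17.9% and 22.7% of all tested genes. With total-read scaling 3 were called higher (42.9%, against 36.1% of all tested genes), and with TPM scaling 4 (57.1%, against 47.3%). SKP1 was no longer called lower in either setting. IREB2, which encodes iron regulatory protein 2, rose from 3.73 ± 0.29 to 4.67 ± 0.26 FPKM (log2 change 0.29, limma adjusted p = 0.0099), higher in all 3 siSGK1 libraries than in any control. ACO1, which encodes iron regulatory protein 1, was not called (log2 change −0.04, adjusted p = 0.58) and was named after its values were seen. The ubiquitin ligase scaffold CUL1 rose from 10.4 ± 0.4 to 12.8 ± 1.0 FPKM and its adaptor SKP1 fell from 11.7 ± 0.4 to 10.3 ± 0.6 FPKM (log2 change −0.18). The call of SKP1 was also lost with the replicate block (limma adjusted p = 0.052), without the level filter (0.074) and in 4 of 6 fits that leave out a library, and its sign turned with TPM scaling (0.01). HERC2, another ubiquitin ligase, was not called (adjusted p = 0.094), but was called lower with voom on recovered reads (limma adjusted p = 0.041).

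**Figure D4:**
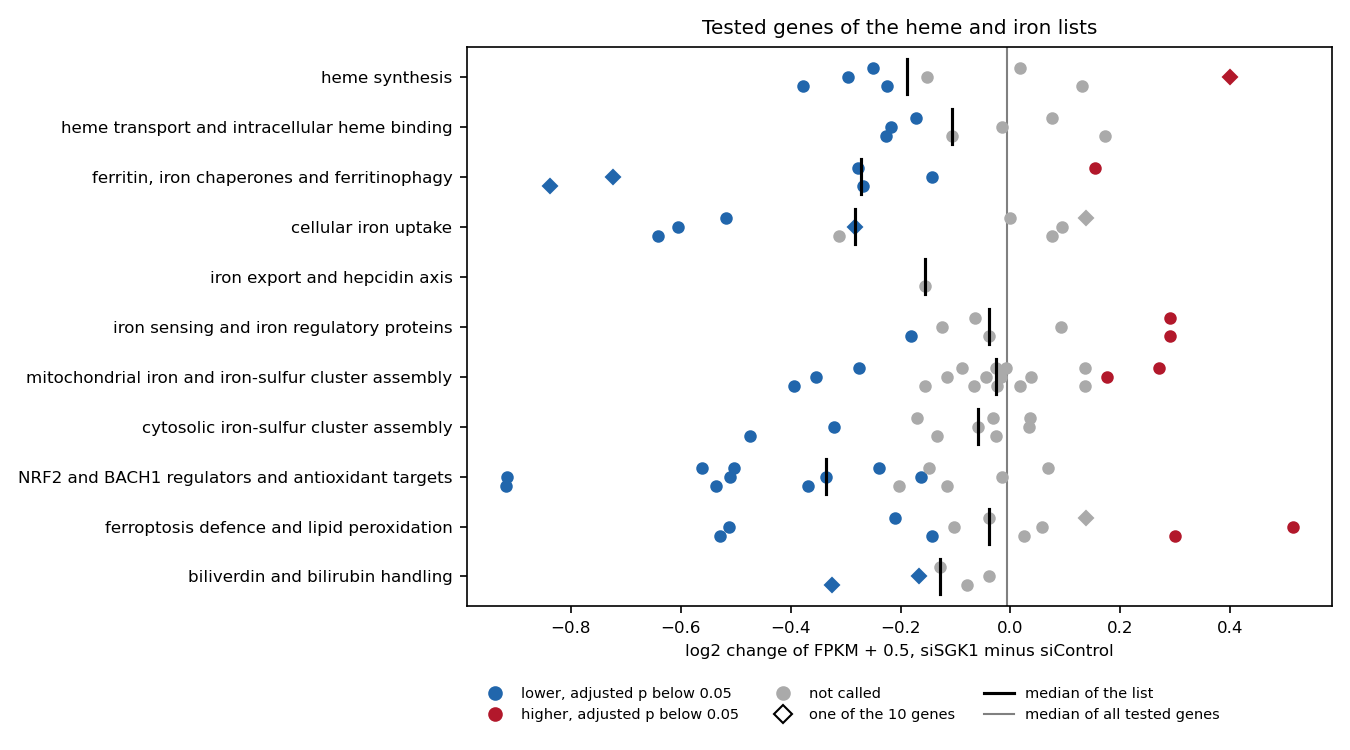
Log2 change of FPKM + 0.5, siSGK1 minus siControl (horizontal axis), of each tested gene of the 11 lists (rows); blue and red points passed an adjusted p below 0.05, diamonds are among the 10 genes, black bars give list medians and the grey line the median of all tested genes. The list of NRF2 and BACH1 regulators and targets has its median at −0.34, and that of mitochondrial iron and iron-sulfur cluster assembly at −0.03. With TPM scaling these medians were −0.14 and 0.18, against 0.19 over all tested genes.

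In the list of heme transport and binding, 3 of 7 tested genes fell and 4 were not called. That is 42.9% lower, against 22.7% of all tested genes. Those that fell were the heme-binding proteins PGRMC2, HEBP2 and HEBP1, with log2 changes of −0.23, −0.22 and −0.17. These calls were lost with total-read scaling (−0.09, −0.09 and −0.04, limma adjusted p = 0.10, 0.24 and 0.53) and with TPM scaling (−0.03, −0.03 and 0.02). HEBP1 also lost its call without siControl replicate 3 or siSGK1 replicate 2. FLVCR1, a heme exporter, was not called (1.15 ± 0.09 and 1.35 ± 0.03 FPKM, limma adjusted p = 0.13) and was called higher with total-read (0.27, adjusted p = 0.031) and TPM scaling (0.39, adjusted p = 0.017) and without the intensity trend (adjusted p = 0.047). The other 3 tested genes of biliverdin and bilirubin handling, ABCC3, POR and CYB5R3, were not called and had log2 changes of −0.13, −0.08 and −0.04 (limma adjusted p = 0.20, 0.35 and 0.61).

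With the deposited scaling, most iron-sulfur cluster genes were not called. Of 18 tested mitochondrial genes 3 fell, 2 rose and 13 were not called (median log2 change −0.03), and of 9 cytosolic ones 2 fell and 7 were not called (median −0.06). Those called lower were 16.7% and 22.2%, against 22.7% of all tested genes. Those called higher were 11.1% and 0%, against 17.9%. With TPM scaling 9 of the 18 and 4 of the 9 were called higher (50% and 44.4%, against 47.3% of all tested genes). Another 2 of the 18 and 1 of the 9 were called lower (11.1% each, against 9.8% of all tested genes), so most were called under that scaling. The medians with TPM scaling were 0.18 and 0.14, against 0.19 over all tested genes. The scaffold ISCU fell from 18.7 ± 0.3 to 15.4 ± 0.3 FPKM, ferredoxin reductase (FDXR) from 73.8 ± 2.0 to 56.3 ± 5.5 FPKM and the transporter ABCB8 from 4.77 ± 0.18 to 3.63 ± 0.25 FPKM. ISCA1, an assembly protein, rose from 10.9 ± 0.5 to 13.2 ± 0.4 FPKM. In the cytosolic pathway FAM96B fell from 174.6 ± 7.2 to 125.6 ± 5.5 FPKM and CIAPIN1 from 48.0 ± 2.6 to 38.4 ± 2.9 FPKM, while NUBP1 and NUBP2 were not called (limma adjusted p = 0.053 and 0.13). NUBP1 was called lower with a filter of at least 5 FPKM and with voom (limma adjusted p = 0.036 and 0.045). It was also called lower without siControl replicate 4 or siSGK1 replicate 2 (limma adjusted p = 0.045 and 0.042). ISCU and CIAPIN1 lost their calls with TPM scaling (log2 changes −0.08 and −0.12).

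Of 11 tested genes of ferroptosis, the iron-dependent death by lipid peroxidation, 4 fell, 2 rose and 5 were not called. That is 36.4% lower and 18.2% higher, against 22.7% and 17.9% of all tested genes. With TPM scaling 2 were called lower and 5 higher (18.2% and 45.5%, against 9.8% and 47.3% of all tested genes). ACSL4, which loads polyunsaturated fatty acids for membrane lipids, rose from 5.33 ± 0.41 to 7.81 ± 0.14 FPKM (log2 change 0.51, limma adjusted p = 3.63e-04). The amino acid transporter chain SLC3A2 fell from 207 ± 8 to 145 ± 13 FPKM (log2 change −0.51, limma adjusted p = 5.98e-04). The related iron-sulfur proteins CISD1 and CISD2 went opposite ways, with log2 changes of −0.53 and 0.30 (limma adjusted p = 1.86e-04 and 0.0018).

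The genes whose pattern over the 6 libraries was most like that of HMOX1 were found by a measure of distance, as a description. By the root mean square difference of log2 values, each gene centred on its own mean, the 5 closest protein-coding genes were KRT2, KRT10, CDH16, TGM3 and CNN3, at 0.14 to 0.17 log2 units. KRT10, a suprabasal keratin, had a log2 change of −1.57, the cadherin CDH16 one of −1.55 and the keratin KRT2 one of −1.44. The calponin CNN3 had one of −1.38 and the transglutaminase TGM3 one of −1.27. These genes were picked for likeness to HMOX1, so their similar log2 changes follow from the choice. KRT2 averaged 1.86 FPKM in siControl and 0.372 FPKM in siSGK1, so it passed the level filter through siControl. Its mean FPKM fell 4.99-fold, against 3.24-fold for HMOX1, so its closeness to HMOX1 depends on the 0.5 FPKM added before taking logs.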

How the data were processed

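The deposited FPKM values, made by the authors, cover 58302 genes and 6 libraries. The submitters' processing notes name featureCounts 1.5.0-p3, HISAT2 2.0.5, bcl2fastq 2.19 and the build hg19, but the gene coordinates in the table are those of GRCh38 (56588 of 58039 shared identifiers, 97.5%, match GENCODE 29) and are given as such. No source used here gives strand or multi-mapping settings. FPKM times gene length was a whole multiple of 1 step per library for 100% of values above 0 (tolerance 0.001), which gave reads; the implied library size was 0.952 to 1.09 times the read total, so the values carry a further scaling.

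For testing, limma 3.58.1 (R 4.3.3) was run on log2(FPKM + 0.5) (empirical Bayes with intensity trend, two-sided, no replicate block), with Benjamini-Hochberg adjustment over the 11945 genes with a mean of at least 1 FPKM; changes on this scale understate those of low genes. The script was tested on simulated data. Sequences were searched with Python 3.11.15. Named genes are the 10 genes, SGK1 and up to 4 genes per list with the smallest p. The 5 genes most like HMOX1 and the 3 most abundant pseudogenes are also named. BACH1, KEAP1, GCLM, TXNRD1, MAFK and ACO1, and genes that make up a small count, were chosen later. The genes, lists and tests were chosen with earlier results of these data known. Alternatives covered pseudocount, filter, scaling, test, replicate block and leaving out each library.

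Exons of HEBP1, HEBP2, PCBP2, PCBP4, MCOLN1, CUL1, CIAPIN1, NFE2L2 and POR overlap those of other tested genes, so their values are uncertain to that extent. Some genes of the lists are not reported here by name.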

Additional observations from a re-analysis of the deposited data

How the results depend on the processing

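The log2 changes of HMOX1, FTL, FTH1, BLVRB and FECH kept their direction and call in all 16 alternatives, with ranges of −1.71 to −1.43, −0.91 to −0.52, −0.79 to −0.36, −0.36 to −0.12 and 0.36 to 0.61. The number of the 10 genes called higher was 1, and 2 with total-read scaling, 3 with TPM scaling and 2 with voom on recovered reads, because TFRC (and, with TPM, HMOX2) was then called; leaving out a library gave 1 to 2. The number called lower was 4 to 6, and the number of all genes called was 3286 to 6816; leaving out a library gave 5 to 6 and 3773 to 4345. Total-read and TPM scaling shifted the median of all genes by 0.12 and 0.19 log2 units, and raised the higher genes from 44.2% of all calls to 73.6% and 82.8%. Signs turned with total-read scaling for HMOX2 (0.0492), SLC40A1 (0.0510), HERC2 (0.00254), NUBP2 (0.00567), POR (0.0450) and CYB5R3 (0.0995). They turned with TPM scaling for HMOX2 (0.113), BLVRA (0.0347), SLC40A1 (0.120), HEBP1 (0.0247), NCOA4 (0.0591), HFE (0.00474), SKP1 (0.0150), HERC2 (0.0642), NUBP1 (0.0291), NUBP2 (0.0690), ABCC3 (0.0294), POR (0.11) and CYB5R3 (0.164). Quantile normalization turned CYB5R3 (0.0262). Leaving out a library turned SLC40A1 (range −0.0952 to 0.0210) and CYB5R3 (range −0.0669 to 0.0160). Of these, HMOX2 and CYB5R3 were called after TPM scaling. Over 49 other named genes, 699 of 773 values kept direction and call, 47 lost a call, 11 gained one and 16 turned; the cause was not tested.

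Replicate numbers gave little sign of pairing: same-numbered libraries correlated at 0.12, 0.01 and −0.10 in their deviations from the group means. Of the 3 control libraries, 1 correlated best with its own number. With 3 libraries per group, these values cannot show whether same-numbered cultures were handled together. With the replicate block 4560 genes were called, 6 of the 10 genes lower and 1 higher. Depth limits SLC40A1, at 59 to 89 reads per library.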

Other observations

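Genes with a match to the iron responsive element, as searched above, were also described across the whole table. Of 134 tested genes with a match in the 5′ UTR, 32 (23.9%) were called lower and 22 (16.4%) higher, with a median log2 change of −0.0004. Of 549 tested genes with a match in the 3′ UTR, 125 (22.8%) were lower and 109 (19.9%) higher, with a median of −0.004. Over all 11945 tested genes the shares were 22.7% and 17.9%, and the median −0.006. Among the members with a 5′ match the log2 changes were −0.84 for FTL, −0.72 for FTH1 and −0.02 for SLC40A1, and among those with a 3′ match 0.14 for TFRC and −0.28 for SLC11A2.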
